A study of Homo sapiens with 8 samples.

Results

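The 8 genes described here encode the enzymes that write, oxidise and remove 5-methylcytosine in DNA: the methyltransferases DNMT1, DNMT3A and DNMT3B, the dioxygenases TET1, TET2 and TET3, and the glycosylases TDG and MBD4. They were chosen by name from an expression table with 18892 rows, and all 8 were found. Their RNA was measured in the established line C4-2, human prostate cancer cells that descend from LNCaP. PolyA RNA was sequenced from 2 libraries of cells with a control short hairpin RNA (shCTRL) and 2 whose hairpin targets CDCA8 (shCDCA8), a gene that encodes borealin of the chromosomal passenger complex. Small RNA was sequenced from 2 shCTRL libraries and 2 whose hairpin targets EZH2 (shEZH2), the Polycomb histone methyltransferase. The labels give 1 hairpin name per target and do not say whether the libraries of a group came from separate cultures, so p-values measure the spread between these libraries, which may be technical.

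DNMT1 copies methylation onto the new strand behind the replication fork, and DNMT3A and DNMT3B set methylation at sites that had none. TET proteins oxidise 5-methylcytosine in steps, and TDG cuts out the most oxidised forms so that base excision repair can restore an unmethylated cytosine. TDG and MBD4 also remove the thymine that arises when 5-methylcytosine loses its amino group. In prostate cancer, gain of methylation at the promoters of genes such as GSTP1 is a well known change.

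The genes lie on different chromosomes, apart from DNMT3A and TET3, which are both on chromosome 2. In RefSeq (GRCh38.p14) DNMT1 spans chr19:10133346-10194953, TDG spans chr12:103965872-103988874 and MBD4 spans chr3:129430947-129439948. RefSeq promoter windows of 300 bases were found for all 8 genes, 17 windows in all, because some genes have several start sites. The 250 bases before the start site are printed for the methyltransferase with the most reads, for TDG, which moved the opposite way, and for DNMT3B, which fell most among the 3 methyltransferases. Capitals mark CpG, the dinucleotide on which these enzymes act. The strand shown is that of the gene, minus for DNMT1 (chr19:10194954-10195203) and plus for TDG (chr12:103965622-103965871) and DNMT3B (chr20:32779602-32779851).
DNMT1 promoter: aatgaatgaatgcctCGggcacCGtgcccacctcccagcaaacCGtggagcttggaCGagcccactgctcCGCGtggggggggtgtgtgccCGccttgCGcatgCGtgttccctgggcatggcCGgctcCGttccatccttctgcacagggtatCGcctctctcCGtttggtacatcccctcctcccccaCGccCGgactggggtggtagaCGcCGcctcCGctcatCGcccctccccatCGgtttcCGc
TDG promoter: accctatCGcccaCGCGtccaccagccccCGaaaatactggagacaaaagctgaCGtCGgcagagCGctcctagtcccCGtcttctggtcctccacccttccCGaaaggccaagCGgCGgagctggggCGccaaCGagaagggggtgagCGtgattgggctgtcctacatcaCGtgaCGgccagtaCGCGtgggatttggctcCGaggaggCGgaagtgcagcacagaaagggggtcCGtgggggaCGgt
DNMT3B promoter: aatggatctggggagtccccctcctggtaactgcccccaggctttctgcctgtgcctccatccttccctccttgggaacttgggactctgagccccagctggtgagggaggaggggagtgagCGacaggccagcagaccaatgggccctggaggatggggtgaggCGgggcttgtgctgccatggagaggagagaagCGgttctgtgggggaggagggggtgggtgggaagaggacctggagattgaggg
The DNMT1 window held 30 CpG in its 300 bases and the TDG window 22, against a median of 14 over 35116 RefSeq windows. The DNMT3B window held 3, and 18.2% of all windows held fewer. That DNMT3B start site lies inside the gene as RefSeq spans it (chr20:32762385-32809356), so the window is not at the gene's first base. The 4 letter strings of the E2F type (TTTCCCGC, TTTGGCGC, TTTCGCGC and TTTGCCGC, both strands, with overlaps between strings not removed) were searched in the windows. Any of them was found in 3.31% of all windows, and among the member windows in that of DNMT1 alone. There TTTCGCGC ran on the reverse strand from base -2 to base 6 around the start site. For DNMT3B only the window inside the gene was searched, and not the sequence before the gene's first base. The E-box CACGTG, which reads the same on both strands, was in 7.26% of all windows and in windows of DNMT3A, TET2, TET3 and TDG. A match is a description of the letters and not a bound site.

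Values are RPM, reads scaled to a library total set by the authors. These totals were 46709612 to 55289855 reads in the RNA libraries. The share that fell in the gene rows was 41.1% and 43.6% in shCTRL and 33.3% and 34.2% in shCDCA8. CDCA8 stood at 14.2 and 16.5 RPM in shCTRL and at 3.98 and 3.94 RPM in shCDCA8. Differences were tested with limma on log2(RPM + 1) over the 11833 genes that reached 1 RPM in 2 or more libraries, and "rose" or "fell" is used of genes with a Benjamini-Hochberg adjusted p under 0.05. Of all tested genes 66.4% were called, 18.8% higher and 47.6% lower, and the median log2 fold change was -0.27, so a value near -0.27 is the middle of the table. Median-ratio scaling, which sets the typical gene level between libraries, moves that median to 0.01, with 66.8% of genes called, 33.2% higher and 33.6% lower. Scaling to the sum of the gene rows moves the median to 0.02. Of the luminal prostate markers all 9 passed the filter (2 higher, 6 lower). Of 16 markers of fibroblasts, leukocytes, endothelium and basal cells 12 were in the table, 4 passed the filter and 3 fell. The 12 summed to 20.0 and 24.1 RPM in shCTRL and to 8.21 and 9.80 RPM in shCDCA8. The fibroblast genes COL1A1 (9.62 and 11.8 RPM in shCTRL) and PDGFRB (2.08 and 2.29 RPM) and the endothelial gene VWF (5.23 and 6.47 RPM) fell, with log2 fold changes of -1.30, -0.76 and -1.40. Other markers of the same and further cell types, CD3E, DCN, LUM and PECAM1, were under 0.1 RPM in all 4 libraries. COL1A2, COL3A1, CD14 and LYZ exceeded 0.1 RPM in some libraries, with LYZ highest at 0.471 RPM, and did not pass the filter. The basal marker KRT14 was at 2.53 and 2.53 RPM in shCTRL and at 2.03 and 2.35 RPM in shCDCA8. It was not called (-0.15). The genes from CD3E to KRT14 in this order were named after their values were seen. The part of these markers in the results that follow was not tested.

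After CDCA8 knockdown, RNA of the 3 DNA methyltransferases fell. On the scale of RPM + 1 the factor was about 0.52 for DNMT3B and 0.64 for DNMT1 and DNMT3A. On that scale TDG rose by a factor of 1.91 and MBD4 fell by a factor of 0.75, and TET2 and TET3 did not pass the test. TET1 was below the filter. So 5 of the 7 tested members were called, a share close to that of all genes (66.4%). In RPM as deposited the groups did not overlap for those 5, as for 83.2% of all tested genes. Overlap of members here and below was taken on that scale and not after median-ratio scaling. Scaling changed which members were called. Under median-ratio scaling DNMT3A and DNMT3B fell and TDG and TET3 rose, while DNMT1 and MBD4 did not pass. With a replicate block as deposited, 6 members were called where 75.2% of all genes were (22.9% higher, 52.3% lower).

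**Figure D1:**
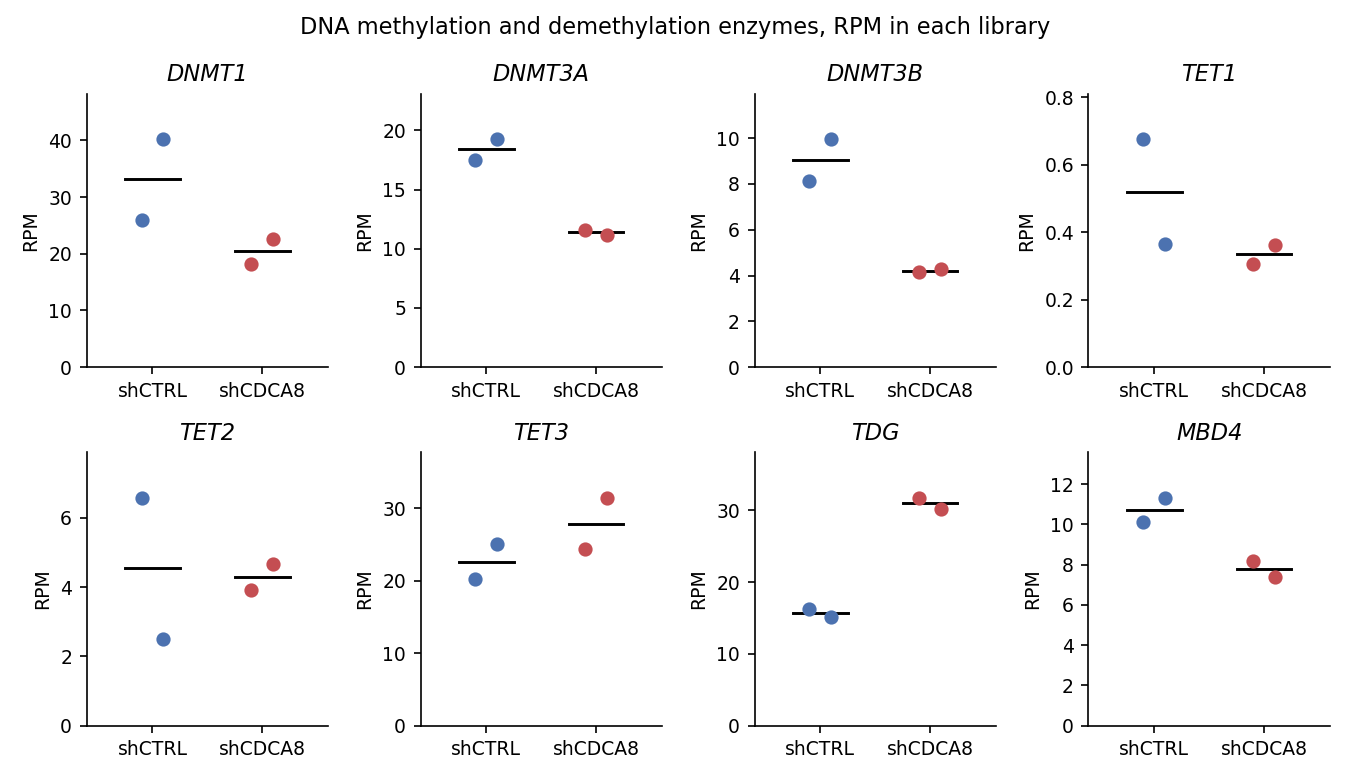
RPM of each of the 8 genes (vertical axes, each from 0) in the 2 shCTRL (blue) and 2 shCDCA8 (red) libraries; each point is 1 library and the line is the mean of the group. In RPM as deposited the groups do not overlap for DNMT1, DNMT3A, DNMT3B, TDG and MBD4, as for 83.2% of all tested genes. TET1 stays under 1 RPM and was not tested, and its nearest libraries of the 2 groups almost coincide (0.364 and 0.362 RPM). The shCTRL libraries lie far apart for DNMT1 and TET2.

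The maintenance enzyme DNMT1 was measured at 26.0 and 40.2 RPM in shCTRL and at 18.2 and 22.7 RPM in shCDCA8. Both knockdown libraries lay under both controls, and the gap between the controls was wider than that between the lower control and the higher knockdown library. DNMT1 fell by 0.65 on the log2 scale (SE 0.178, n = 2 against 2, limma adjusted p = 0.00684). Without shCTRL replicate 2, the higher control, the log2 fold change was -0.34 (limma adjusted p = 0.0635) and the call was lost. Without shCTRL replicate 1 it was -0.95. Under median-ratio scaling DNMT1 stood at -0.35 (limma adjusted p = 0.0993), and over 20 alternatives its adjusted p ran from 2.23e-07 to 0.664. It had 951 to 1878 reads per library.

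The de novo enzyme DNMT3A was at 17.5 and 19.3 RPM in shCTRL and at 11.6 and 11.2 RPM in shCDCA8. The libraries of each group lay close together and well apart from the other group. DNMT3A fell by 0.65 on the log2 scale (SE 0.123, limma adjusted p = 0.00061). Median-ratio scaling left it lower at -0.35 (limma adjusted p = 0.0186, from 3.08e-06 to 0.0838 over 20 alternatives), and it was called in 18 of the 20. The 2 that lost it combined that scaling with leaving out shCTRL replicate 2 (-0.33) or shCDCA8 replicate 2 (-0.30).

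DNMT3B, the second de novo enzyme and the one whose mutation causes the immunodeficiency syndrome ICF, was at 8.12 and 9.96 RPM in shCTRL. In shCDCA8 it was at 4.13 and 4.29 RPM. No knockdown library reached the lower control, and the knockdown libraries almost coincided. DNMT3B fell by 0.94 on the log2 scale (SE 0.142, limma adjusted p = 0.000108) and by 0.67 under median-ratio scaling (limma adjusted p = 0.00202). It was called lower in all 20 alternatives, with log2 fold changes from -1.08 to -0.58 (adjusted p from 5.05e-08 to 0.0178). Of tested genes 16.7% had a lower log2 fold change than DNMT3B and 29.5% a lower one than DNMT1 or DNMT3A. DNMT3L, the catalytically inactive cofactor of the de novo enzymes, had 2 to 18 reads in a library and was not tested.

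TET1 had 36 and 17 reads in shCTRL and 16 and 20 reads in shCDCA8, which is 0.675 and 0.364 RPM against 0.306 and 0.362 RPM. The knockdown libraries lay just under the lower control. It did not pass the filter, so its difference of -0.18 on the log2(RPM + 1) scale has no test.

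TET2, often mutated in blood cancers, was at 6.58 and 2.50 RPM in shCTRL and at 3.92 and 4.67 RPM in shCDCA8. Both knockdown libraries lay between the controls. Its log2 fold change was 0.03 (SE 0.267, limma adjusted p = 0.916). Without shCTRL replicate 1 TET2 was called higher (0.59, limma adjusted p = 0.00174), and without shCTRL replicate 2 it was called lower (-0.52, limma adjusted p = 0.00722). The direction of TET2 thus turned with the control library used. RefSeq places the antisense gene TET2-AS1 over TET2, and no source used here says whether reads were counted by strand, so reads of the pair may not be told apart.

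TET3 was at 20.2 and 25.1 RPM in shCTRL and at 24.3 and 31.5 RPM in shCDCA8. The groups overlapped, since the lower knockdown library lay under the higher control. As deposited, TET3 had a log2 fold change of 0.29 (SE 0.147, limma adjusted p = 0.104). With median-ratio scaling it rose by 0.59 (limma adjusted p = 0.00378), and edgeR on recovered reads gave 0.61 (adjusted p = 0.00657). It was called higher in 13 of 20 alternatives and lower in none, with adjusted p from 2.06e-05 to 0.604. Those alternatives include leaving out shCTRL replicate 2 (0.44, limma adjusted p = 0.016) or shCDCA8 replicate 1 (0.47, limma adjusted p = 0.0116), and the fit with a replicate block (0.29, limma adjusted p = 0.00354). The gene BOLA3 overlaps TET3 in RefSeq and stood at 9.55 and 9.98 RPM in shCTRL and at 9.01 and 7.13 RPM in shCDCA8.

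The glycosylase TDG was at 16.3 and 15.2 RPM in shCTRL and at 31.8 and 30.2 RPM in shCDCA8. The groups were far apart and the libraries of each close together. TDG rose by 0.94 on the log2 scale (SE 0.115, limma adjusted p = 2.34e-05), against the median of -0.27 over all genes, and 3.76% of tested genes had a higher log2 fold change. It was called higher in all 20 alternatives, from 0.89 to 1.31 (adjusted p from 2.56e-18 to 0.00101), and by 1.23 under median-ratio scaling. RefSeq lists the pseudogene TDGP1, so reads of TDG may be shared with it where the authors' counting allowed that.

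MBD4, a glycosylase with a domain that binds methylated CpG, was at 10.1 and 11.3 RPM in shCTRL and at 8.19 and 7.36 RPM in shCDCA8. The groups did not overlap, and the gap between them was wider than the difference between the libraries of either group. MBD4 fell by 0.42 on the log2 scale (SE 0.133, limma adjusted p = 0.0156), or by 0.15 relative to the median of all genes. Under median-ratio scaling it stood at -0.13 (limma adjusted p = 0.37, from 0.00203 to 0.859 over 20 alternatives). It also lost its call without shCTRL replicate 2 (-0.34, limma adjusted p = 0.0805) and without shCDCA8 replicate 2 (-0.35, limma adjusted p = 0.108).

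**Figure D2:**
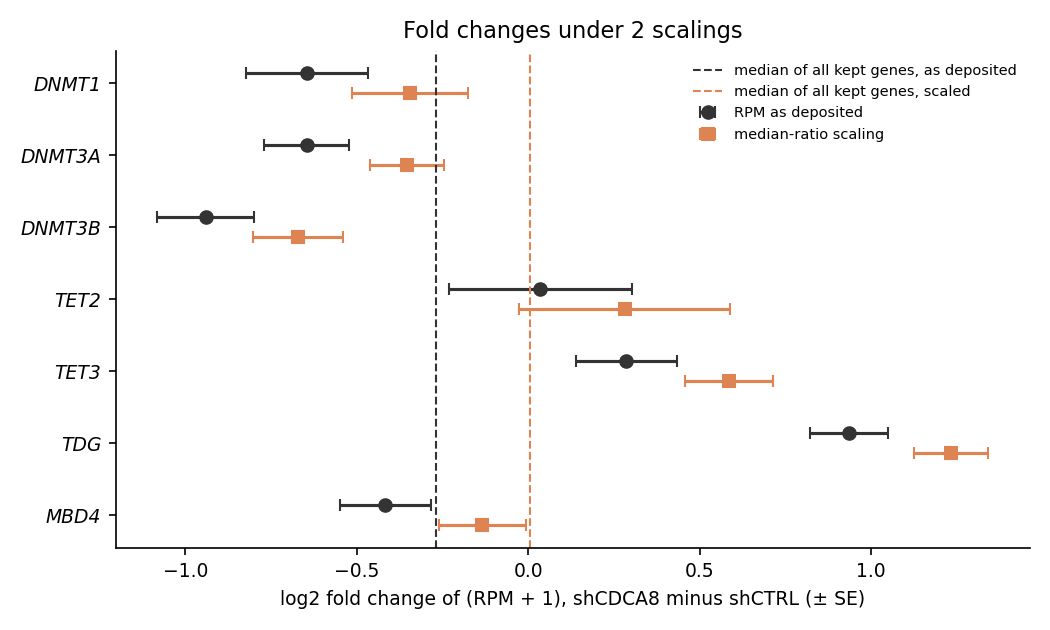
Log2 fold change of (RPM + 1), shCDCA8 minus shCTRL, with its SE (horizontal axis), for the 7 tested genes as deposited (black circles) and under median-ratio scaling (orange squares); dashed lines are the medians of all 11833 tested genes, -0.27 and 0.01. TDG lies to the right and DNMT3B to the left of the medians under both scalings, while MBD4 moves from -0.42 to -0.13 and DNMT1 from -0.65 to -0.35 with scaling.

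Ratios between members within a library do not depend on the library's divisor. The RPM ratio of TDG to MBD4, the pair of thymine glycosylases, was 1.61 and 1.34 in shCTRL and 3.88 and 4.10 in shCDCA8. The ratio was thus higher in both knockdown libraries, by a factor of 2.71 between the means. The ratios are given as a description, with no test.

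The RPM of the 3 TET genes summed to 0.531 and 0.403 of that of the 3 DNMT genes in shCTRL and to 0.842 and 0.958 in shCDCA8. That ratio rests mostly on TET3, DNMT1 and DNMT3A, and did not overlap between the groups. The DNMT sum was 60.5 ± 12.6 RPM in shCTRL and 36.0 ± 2.98 RPM in shCDCA8 (SD, n = 2), and the TET sum 27.7 ± 0.394 and 32.5 ± 5.63 RPM. TDG was 0.315 and 0.219 of the DNMT sum in shCTRL and 0.937 and 0.791 of it in shCDCA8. The sums mix genes of different transcript length and are no measure of relative abundance between the families.

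Among the methyltransferases, DNMT3B was 0.464 and 0.517 of DNMT3A in shCTRL and 0.357 and 0.383 in shCDCA8, so DNMT3B was the lower relative to DNMT3A in both knockdown libraries. The ratio of DNMT3A to DNMT1 overlapped between groups, at 0.673 and 0.479 in shCTRL and 0.636 and 0.493 in shCDCA8. The ratio of TET3 to TET2 was 3.07 and 10.0 in the 2 controls, on either side of the 6.20 and 6.75 in the knockdown libraries.

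**Figure D3:**
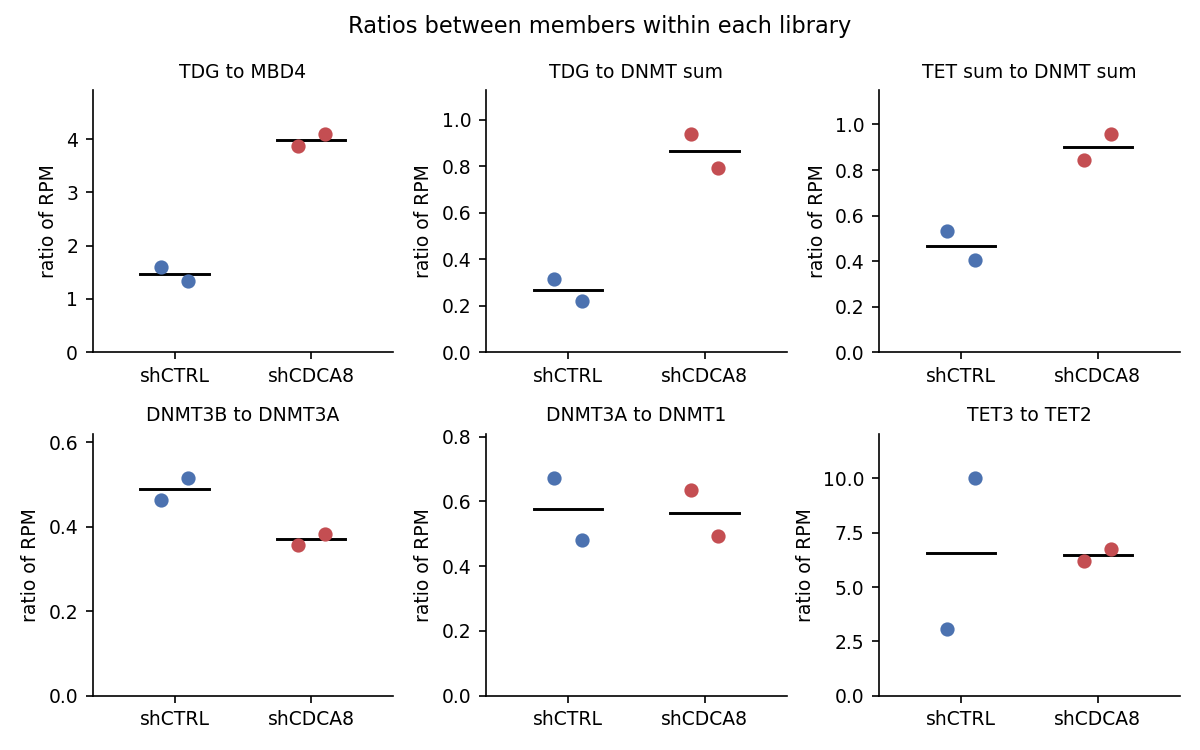
Ratios of RPM between members within each library (vertical axes, from 0) for shCTRL (blue) and shCDCA8 (red); each point is 1 library and the line is the mean. TDG to MBD4, TDG to the DNMT sum, TET sum to DNMT sum and DNMT3B to DNMT3A do not overlap between the groups, whereas DNMT3A to DNMT1 and TET3 to TET2 do.

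The genes whose pattern over the 4 libraries was closest to each member, by the root mean square difference of centred log2(RPM + 1), were NFE2L1 (0.0109) and CAPRIN1 (0.0127) for DNMT3A, SRGAP1 (0.00937) and MID1IP1 (0.0249) for DNMT3B, and GFM1 (0.0244) and PAPD4 (0.0273) for TDG. PITPNM2 (0.0529) and SH3TC1 (0.0582) were closest to DNMT1, MMP15 (0.00994) and MAN2C1 (0.0167) to TET3, and TATDN3 (0.0111) and GPATCH4 (0.0155) to MBD4. With 4 libraries many genes share a pattern: of 8450 genes averaging 5 RPM or more, 791 lay within 0.1 of DNMT3A, 442 within 0.1 of DNMT3B and 161 within 0.1 of TDG. None lay within 0.1 of TET2, for which HIPK3 (0.112) and CDC42BPA (0.119) were nearest. Among the members themselves the closest pair was DNMT3A and MBD4 (0.119) and the farthest DNMT3B and TDG (0.947).

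Of 8 tested partners of DNMT1 in maintenance 5 fell and none rose, with a median log2 fold change of -0.41 against -0.27 over all genes. Under median-ratio scaling 3 fell and 1 rose. Over all tested genes 47.6% were called lower and 18.8% higher, or 33.6% and 33.2% with that scaling. The counts of the lists that follow are to be read beside these shares. UHRF1, which recognises hemimethylated CpG and brings DNMT1 there, was at 9.38 and 13.7 RPM in shCTRL and at 3.18 and 3.89 RPM in shCDCA8, and fell by 1.45 on the log2 scale (SE 0.173, limma adjusted p = 1.85e-05). Like DNMT1, it was higher in shCTRL replicate 2 than in replicate 1. CDCA7, a partner of the remodeller HELLS that is mutated in ICF syndrome like DNMT3B, fell from 4.41 ± 0.0557 to 1.15 ± 0.217 RPM (SD, n = 2; -1.34). LIG1, the ligase of the lagging strand, fell by 0.83, and PCNA, the replication clamp that DNMT1 binds, by 0.40, the latter not under median-ratio scaling (-0.10, limma adjusted p = 0.378, from 0.000198 to 0.705 over 20 alternatives). These are genes of replicating cells, and in bulk RNA a smaller share of cells in S phase and less RNA per cell cannot be told apart.

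Of 12 tested genes in the cycle of the methyl donor S-adenosylmethionine, 4 fell and 4 rose with median-ratio scaling. That is close to the 33.6% and 33.2% of all tested genes. As deposited 5 fell and 4 rose (median -0.23), beside 47.6% and 18.8% of all tested genes (median -0.27). The rises numbered 2 without shCTRL replicate 1, without shCDCA8 replicate 1 or without shCDCA8 replicate 2. MAT2A, the synthetase of non-hepatic tissue, was at 102.1 and 112.3 RPM in shCTRL and at 45.9 and 50.8 RPM in shCDCA8, and fell by 1.13 (limma adjusted p = 2.64e-06). Its regulatory subunit MAT2B fell by 1.39 and the liver form MAT1A by 1.38, the latter from 2.28 ± 0.227 to 0.261 ± 0.0104 RPM (SD, n = 2). The pseudocount of 1 understates the change of a gene as low as MAT1A, which was -2.81 by edgeR on recovered reads and -0.94 with quantile normalization. AMD1, which draws the donor into polyamine synthesis, went the other way, from 68.2 ± 11.8 to 143.5 ± 5.61 RPM (1.07, limma adjusted p = 1.05e-05).

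Of all tested genes 47.6% fell and 18.8% rose (median -0.27), and with median-ratio scaling 33.6% fell and 33.2% rose. Of 9 genes from families that include methyl-CpG readers, 6 fell and 1 rose (median -0.59), against 5 and 1 with that scaling. With that scaling 2 fell without shCTRL replicate 2 and 3 without shCDCA8 replicate 2, and 2 rose without shCTRL replicate 1. MBD5 fell by 1.12 and MBD3, a subunit of the NuRD complex, by 0.63, the latter call being lost with scaling and without shCTRL replicate 2 (-0.29, limma adjusted p = 0.0747, the highest of 20 alternatives, from 3.58e-08). ZBTB33, which encodes Kaiso, rose from 5.27 ± 1.04 to 10.6 ± 0.0822 RPM (SD, n = 2; 0.90, limma adjusted p = 0.0002).

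Of 18 tested base excision repair genes 15 fell and none rose (median -0.62), against 10 and none with median-ratio scaling (1 rose with that scaling and without shCDCA8 replicate 2). Beside that, 47.6% of all tested genes fell and 18.8% rose (median -0.27), and with scaling 33.6% fell and 33.2% rose. UNG, the uracil glycosylase, was at 27.6 and 30.4 RPM in shCTRL and at 8.33 and 8.86 RPM in shCDCA8, and fell by 1.64 (SE 0.122, limma adjusted p = 5.31e-07). LIG3, the ligase that works with XRCC1, fell by 0.94, PARP1, the sensor of DNA breaks, by 0.86, and the oxidised base glycosylase NEIL1 by 0.79. Of the 9 glycosylases in that list 8 fell, and 6 with median-ratio scaling, while MPG, named after its value was seen, was not called (-0.24, limma adjusted p = 0.078).

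Of 16 tested partners of TET proteins and enzymes of their cosubstrate 2-oxoglutarate 1 rose (2 without shCTRL replicate 2) and 5 fell (median -0.02), and under median-ratio scaling 6 rose and 3 fell (median 0.25). Among all tested genes 18.8% rose and 47.6% fell (median -0.27), and with scaling 33.2% rose and 33.6% fell (median 0.01). IDH2, the mitochondrial NADP-dependent isocitrate dehydrogenase, fell from 92.6 ± 7.38 to 52.8 ± 4.10 RPM (SD, n = 2; -0.80, limma adjusted p = 4.44e-05). IDH3B, a subunit of the NAD-dependent enzyme, rose from 30.2 ± 1.32 to 50.1 ± 0.707 RPM (0.71, limma adjusted p = 9.72e-05). GADD45G and GADD45A, stress proteins linked to demethylation, fell by 0.92 and 0.78.

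Genes kept silent by DNA methylation in somatic tissue were looked at as a second group of transcripts. Of 20 germline and cancer-testis genes measured, 7 passed the filter, of which 1 rose and 1 fell (median 0.01), and with median-ratio scaling 3 rose and none fell. As deposited, the rise was lost without any 1 library, and 3 fell without shCTRL replicate 1 but none without shCTRL replicate 2 or shCDCA8 replicate 2. PRAME was at 82.0 and 98.1 RPM in shCTRL and at 74.7 and 80.5 RPM in shCDCA8 (log2 fold change -0.21, limma adjusted p = 0.117, between 0.012 and 0.97 over 20 alternatives). MAGEA3 was at 47.0 and 48.1 RPM against 57.1 and 58.1 RPM (0.27, limma adjusted p = 0.0304), a call lost as deposited when any 1 of the 4 libraries was left out, and kept with median-ratio scaling (0.58). MAGEA6 was not called as deposited (0.20), and reads of these near-identical MAGEA copies can be shared. MAGEA10 fell by 0.44 (limma adjusted p = 0.0145) but not without shCTRL replicate 2 (-0.36), without shCDCA8 replicate 2 (-0.34) or under median-ratio scaling. The germ cell genes DAZL and DDX4 had under 0.1 RPM in every library. Among the 13 genes that did not pass the filter, TEX14 was at 0.244 and 0.364 RPM in shCTRL and at 0.612 and 0.760 RPM in shCDCA8. For SYCP3, MAEL, TDRD1 and BRDT both knockdown libraries lay under both controls, and for the rest the groups overlapped. None of these was tested.

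Of 15 genes known for promoter hypermethylation in prostate cancer 4 passed the filter, of which 2 fell and none rose (median -0.35). Under median-ratio scaling 2 fell and 1 rose (2 rose without shCTRL replicate 1). GSTP1 was at 0 and 0.107 RPM in shCTRL and at 0.0191 and 0 RPM in shCDCA8, close to the value of 1 read. MGMT, a repair protein for alkylated guanine, was at 30.1 and 33.5 RPM against 38.5 and 37.2 RPM and was not called as deposited (0.25, limma adjusted p = 0.0683), but was under median-ratio scaling (0.55, limma adjusted p = 0.000974, from 2.67e-05 to 0.344 over 20 alternatives). RASSF1 fell from 7.93 ± 0.655 to 4.10 ± 0.218 RPM and RARB from 1.78 ± 0.237 to 0.600 ± 0.226 RPM (SD, n = 2), and APC stayed at 1.43 to 2.01 RPM. Methylation itself was not measured in these libraries.

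**Figure D4:**
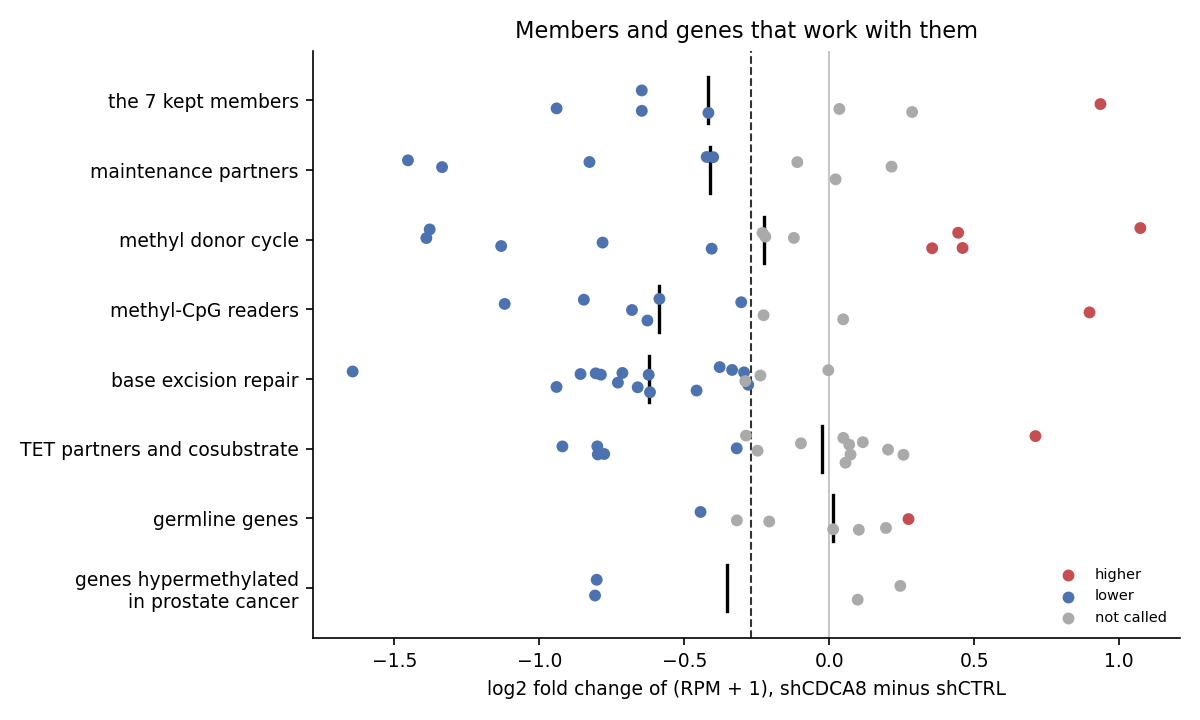
Log2 fold change of (RPM + 1), shCDCA8 minus shCTRL (horizontal axis), for the 7 tested members and the tested genes of 7 lists. The lists hold genes that work with the members, germline genes and genes hypermethylated in prostate cancer. Each point is 1 gene, red called higher, blue called lower and grey not called. The black bar is the median of a row and the dashed line the median of all tested genes (-0.27). No base excision repair gene and no maintenance partner is red, beside 18.8% of all tested genes called higher. TDG is the red point of the top row.

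The small RNA libraries hold microRNAs known to act on these enzymes, and they compare shEZH2 with shCTRL, a different knockdown. The miR-29 family is known to target DNMT3A and DNMT3B, the miR-148 and miR-152 family DNMT1 and DNMT3B, and miR-22 TET2. Their mature sequences from RefSeq (GRCh38.p14) are given to show the shared seeds, bases 2 to 8, in capitals.
miR-29a-3p: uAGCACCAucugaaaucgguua
miR-29b-3p: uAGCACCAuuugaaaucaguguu
miR-29c-3p: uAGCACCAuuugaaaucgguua
miR-148a-3p: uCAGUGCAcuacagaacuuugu
miR-148b-3p: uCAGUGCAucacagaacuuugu
miR-152-3p: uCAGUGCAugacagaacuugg
miR-22-3p: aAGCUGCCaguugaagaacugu
The miR-29 members share the seed AGCACCA, and miR-148a, miR-148b and miR-152 share CAGUGCA. miR-29a-3p was at 79.0 and 109.7 RPM in shCTRL and at 157.3 and 137.5 RPM in shEZH2. It was the highest of its family, with miR-29b-3p at 5.15 to 10.4 RPM and miR-29c-3p at 6.19 to 12.5 RPM over the 4 libraries.

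miR-148a-3p was at 16.5 and 20.6 RPM in shCTRL and at 37.2 and 30.5 RPM in shEZH2, miR-148b-3p at 11.1 to 25.7 RPM, and miR-152-3p stayed under 1 RPM and was not tested. miR-22-3p was at 972.6 and 1984.5 RPM in shCTRL and at 2080.3 and 2333.5 RPM in shEZH2. For all 6 tested microRNAs both shEZH2 libraries lay above both controls. The groups did not overlap for 63.5% of the 241 tested features, and 81.7% had the higher mean in shEZH2. None of the 6 was called by limma (1.66% of features were), and 1 had an unadjusted p under 0.05 (miR-148a-3p, log2 fold change 0.83, adjusted p = 0.309, from 0.24 to 0.879 over 19 alternatives), with no call by edgeR or DESeq2. The log2 fold changes ran from 0.50 to 0.83, beside a median of 0.43 over all features, and from 0.15 to 0.45 with median-ratio scaling, beside 0.06. As deposited, miR-22-3p ran from 0.15 without shCTRL replicate 1 to 1.18 without shCTRL replicate 2, and miR-148b-3p from 0.37 to 1.05 over the libraries left out. Without shCTRL replicate 2 miR-22-3p was called (1.18, limma adjusted p = 0.0335).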

How the data were processed

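TopHat, HTSeq, cutadapt and edgeR, with the build hg19, stand in the submitters' processing notes without versions or roles, and no source used here names the annotation. Per the file headers and values, the deposited unit is RPM, made by the authors from reads divided by a library total larger than the sum of the rows. Every value was a whole multiple of 1 read within 0.01 (100% of values), so whole reads could be recovered.

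Values were fitted as log2(RPM + 1) with limma 3.58.1 in R 4.3.3 (trend, two-sided), or for small RNA over the 241 features that reached 5 RPM in 2 or more libraries. Alternatives included edgeR 4.0.16, which called 7807 genes on the recovered reads, and DESeq2 1.42.0. The fit was run on simulated RNA data with a set spread that was not taken from these libraries. It recovered 56.7% of genes changed 1.5-fold, 98.5% of those changed 2-fold and 100% of those changed 4-fold. Because the spread was set, these shares cannot be carried over to the libraries here. Replicate libraries were further apart than read counting alone gives (chi-square per degree of freedom 8.08 and 10.0 for RNA, 203.1 and 120.1 for small RNA).

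Named are the 8 members, CDCA8, EZH2, up to 4 calls of smallest p per list, the 3 most abundant tested genes of the last 2 lists, 7 microRNAs and the 2 nearest patterns per member. EZH2 stood at 11.3 and 9.72 RPM in the controls, against 2.93 and 3.09 RPM after CDCA8 knockdown. The members and lists were chosen with earlier results of these data known. BOLA3, DNMT3L, GSTP1, DAZL, DDX4, TEX14, SYCP3, MAEL, TDRD1 and BRDT were named after their values were seen. 1 gene that the rule names is not reported here. Sequences and positions come from RefSeq, GRCh38.p14.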

Additional observations from a re-analysis of the deposited data

How the results depend on the processing

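Alternatives were other pseudocounts, filters, scalings, count models, a replicate block and each library left out. The combinations of median-ratio scaling with a left-out library or with the block were chosen after seeing the data. DNMT3B and TDG kept direction and call in all 20. DNMT1 was no longer called with median-ratio scaling (-0.35), quantile normalization (-0.39), scaling to the sum of the rows (-0.33), edgeR (-0.38) or DESeq2 (-0.38), and MBD4 likewise (-0.13, -0.16, -0.12, -0.15 and -0.15), nor was MBD4 with scaling and block together (-0.13). TET3 became a call in those settings (0.59, 0.55, 0.60, 0.61 and 0.61), with the replicate block (0.29) and with both (0.59). TET1 was -0.47 with a pseudocount of 0.1. With each library left out, DNMT1 ran from -0.95 to -0.34, DNMT3A from -0.71 to -0.58, MBD4 from -0.49 to -0.34, TET1 from -0.33 to -0.03, TET2 from -0.52 to 0.59 and TET3 from 0.11 to 0.47. With median-ratio scaling as well, DNMT1 ran from -0.617 to -0.0866 (-0.46 without shCDCA8 replicate 2), DNMT3A from -0.41 to -0.30, MBD4 from -0.23 to -0.0321 (-0.18 and -0.10 without each control), TET2 from -0.30 to 0.85 and TET3 from 0.44 to 0.74 (0.69 without shCTRL replicate 2). TET2 reversed without shCTRL replicate 2 (-0.52; -0.30 scaled) and without shCDCA8 replicate 2 (-0.07). Between 4 and 6 members were called with a library left out, 3 to 6 with scaling as well, and 6 with the replicate block. The same replicate numbers deviated together (correlation over genes 0.31), but with 2 pairs the numbers do not show a pairing.

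Genes called higher numbered 3931 with median-ratio scaling, 3980 with quantile normalization, 3985 with scaling to the sum of the rows, 3851 with edgeR, 3639 with DESeq2 and 4444 with scaling and block, against 2224 as deposited, and genes called lower 3721 with quantile normalization and 3575 with DESeq2, against 5628. With a library left out they ran from 1869 to 2059 higher and 4848 to 5624 lower, and with scaling as well from 3327 to 3670 (3387 and 3487 between) and 3434 to 3708 (3519 and 3589 between). PRAME turned to 0.10, 0.0128, 0.12, 0.10 and 0.10 under those scalings and count models, to 0.10 with scaling and block, and to between 0.00682 and 0.18 (0.12 and 0.0853 between) with scaling and a library left out. APC turned to -0.0269 without shCTRL replicate 2 (0.22 without replicate 1) and miR-22-3p to -0.11 with scaling and without shCTRL replicate 1. The ratio of DNMT3A to DNMT1 turned to a log2 change of 0.23 without shCTRL replicate 1 and 0.16 without shCDCA8 replicate 2 (-0.27 without shCTRL replicate 2), and that of TET3 to TET2 to -0.63 without shCTRL replicate 1 (1.08 without replicate 2). Of the 7 microRNAs, 0 or 1 was called with a library left out. The small RNA filter was already 5 RPM, so that alternative gave nothing new. The causes were not tested. TET1, at 16 to 36 reads per library, was under the RPM filter and was not tested.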
